A study of Rattus norvegicus with 7 samples.

Results

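The comparison described here set rat hippocampal astrocytes kept for 24 h with grape seed extract at 1 µg/ml, the lowest dose used, against the same kind of culture without extract. It rests on 2 of the 7 arrays of the series, the astrocyte array at 1 µg/ml and the untreated astrocyte array, which were chosen by cell type and dose as labelled. The other 5 arrays came from astrocytes at 10 and 100 µg/ml and from hippocampal neurons at 0, 1 and 10 µg/ml, with 1 array for each combination. All cultures were primary cultures from Wistar rats labelled with an age of 17 days, which the labels do not call embryonic or postnatal. Untreated and treated cultures alike were kept in DMEM with glutamine, the serum-free N1 supplement, penicillin and streptomycin, and grape seed extract was the only agent that differed between the arrays compared. Neither the number of animals nor any pooling is given in the sources used here. With 1 array a side no value below has an error and no difference could be tested, so a change is given as a size only, and dose, culture and array cannot be told apart.

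Astrocytes support neurons by taking up transmitter and supplying metabolites, and they also take part in the innate immune response of the brain. In culture they answer inflammatory stimuli by turning on NF-kB targets such as chemokines, cytokines and adhesion molecules, and type I interferon adds a layer of antiviral genes. Polyphenol-rich plant extracts are often studied for another programme, the antioxidant genes driven by the factor NRF2.

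Each value is a signal, the brightness of a probe set of an Affymetrix rat array as the authors' software summarised it, on a linear scale. A probe set is a group of short probes for one transcript, and a gene can have several. A floor of 17.9, which 25% of the signals on the arrays do not reach, replaced every lower value. Changes were computed as log2 of the signal at 1 µg/ml over the untreated signal, so that 1 is a 2-fold difference. Of 8740 probe sets that are not controls, the 4252 whose mean over the 4 astrocyte arrays lay above the median signal of 79.9 were compared. The arrays had close overall levels, with median signals of 84.1 without extract and 79.9 at 1 µg/ml. Spike-in control probe sets changed by between -0.46 and 1.14, with both extremes dim. Among brighter ones, DapX-3 read 465.0 and 582.1, a change of 0.32, and CreX-3 read 8449 and 7347, a change of -0.20. The ratio of 3′ to 5′ signal, a sign of RNA integrity, was 2.66 and 2.63 for GAPDH, 8.95 and 8.92 for beta-actin, and 5.23 and 4.27 for hexokinase in the untreated and the treated array.

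Both arrays carried signals of astrocyte marker genes. Apoe, the lipid carrier that astrocytes secrete, read 32188 without extract and 32893 at 1 µg/ml, and the glutamate transporter Slc1a3 read 3976 and 4162. The water channel Aqp4 read 567.0 and 570.0, and the calcium-binding protein S100b read 9085 and 7715. Not all of these set the astrocyte arrays apart. The neuron arrays were higher for Slc1a3, between 9644 and 9877, and for Aqp4, between 948.6 and 1126. For S100b they were lower, between 1966 and 2127. Of 20 astrocyte markers on the array 16 were compared, with a median change of -0.02. The summed signal of these markers went from 155222 to 153499. Slc1a2, another glutamate transporter on the marker list, was not among those compared. Its probe sets read at most 43.6 on the 2 arrays, and some lay below the floor on both. The cultures also held signals of other cell types. Markers of microglia and macrophages summed to 34835 and 37305, with 15 of 19 compared and a median change of 0.06. The myelin gene Mbp read 3895 and 3232, the collagen gene Col1a1 read 6537 and 6478, and the neuronal gene Map2 read 936 and 1037. Of 23 neuron markers on the array 10 were compared, with sums of 4696 and 4802. Among them Gad1 read 430.3 and 322.4, and Ina read 113.8 and 82.1. The neurofilament gene Nefl was not among them and lay below the floor in both, at 13.9 and 10.5. In whole-culture RNA, fewer cells of a type and less RNA per cell cannot be told apart.

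At 1 µg/ml, 44 probe sets, 1.03% of those compared, were at least 2-fold higher than without extract, and 41, or 0.964%, were at least 2-fold lower. Together they made up 2% of the 4252. At 1.5-fold the counts were 194 higher (4.56%) and 213 lower (5.01%), in all 9.57%. Correcting the changes for their trend with signal by a lowess curve turned this near-even split into 57 higher and 32 lower. The higher probe sets stand for 33 named genes and the lower ones for 29. Most of the transcriptome stayed within narrow bounds, with a median change of -0.01, a standard deviation of 0.37 and 90.4% of probe sets within 1.5-fold. Differences of at least 3-fold were seen for 6 probe sets that were higher and 7 that were lower. The threshold fell within a continuous range of sizes. Just inside it lay Rtf1 at 1.00 and Adh1c at 1.01, and just outside it lay Mfsd12 and Tnc, both also 1.00 after rounding.

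**Figure D1:**
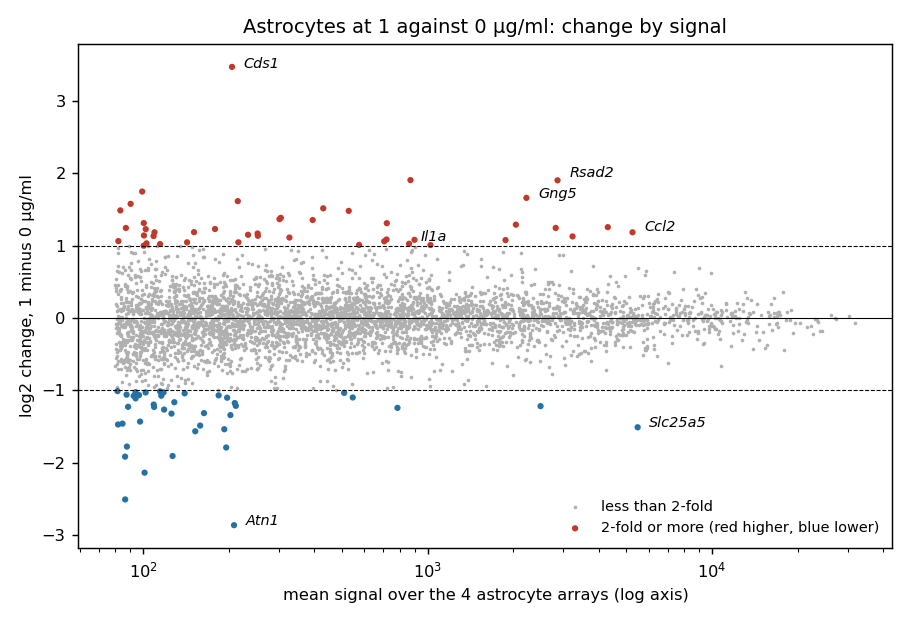
Log2 change of each of the 4252 compared probe sets at 1 against 0 µg/ml in astrocytes (vertical axis) against its mean signal over the 4 astrocyte arrays (horizontal log axis), 1 array a side, with probe sets at least 2-fold higher in red and at least 2-fold lower in blue. The cloud narrows from dim to bright probe sets, and Rsad2 and Ccl2 lie above it at bright signals while Cds1 and Atn1 mark the extremes.

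The size of a difference depended on the brightness of the probe set. In the dimmest quartile of compared probe sets the standard deviation of the changes was 0.46, and it was 0.39, 0.32 and 0.28 in the next quartiles. Accordingly 4.05% of the dimmest quartile but 0.94% of the brightest quartile passed 2-fold. The dimmest quartile held 15 higher and 28 lower probe sets, whereas the brightest held 8 higher and 2 lower. Among the 2129 bright probe sets, those with a mean above 435.7, 17 were at least 2-fold higher (0.798%) and 5 at least 2-fold lower (0.235%). The lower side of the comparison thus lay mainly among dim probe sets.

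The neurons given the same dose offer a pair of arrays that shares no array with the astrocyte pair. Their changes spread less, with standard deviations of 0.38, 0.26, 0.21 and 0.15 from the dimmest to the brightest quartile. Of 4453 probe sets compared in neurons, 12 were at least 2-fold higher (0.269%) and 13 at least 2-fold lower (0.292%), in all 0.561%. Neurons at 10 against 1 µg/ml gave 12 higher and 29 lower (0.651%), in all 0.921%. The astrocyte pair therefore held more 2-fold differences than either neuron pair, and the astrocytes at 100 against 10 µg/ml, with 217 higher (5.1%) and 682 lower (16%), in all 21.1%, held many more. The difference in spread between the cell types was not tested, since each condition has 1 array. Over the 4252 probe sets, changes in astrocytes and neurons at 1 µg/ml had a Pearson r of 0.04 and a Spearman rho of 0.06. With neurons at 10 against 0 µg/ml they were -0.03 and -0.04, or -0.19 and -0.13 among bright probe sets. With astrocytes at 100 against 10 µg/ml they were -0.08 and -0.11. These values are a description across genes, which are not independent replicates.

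**Figure D2:**
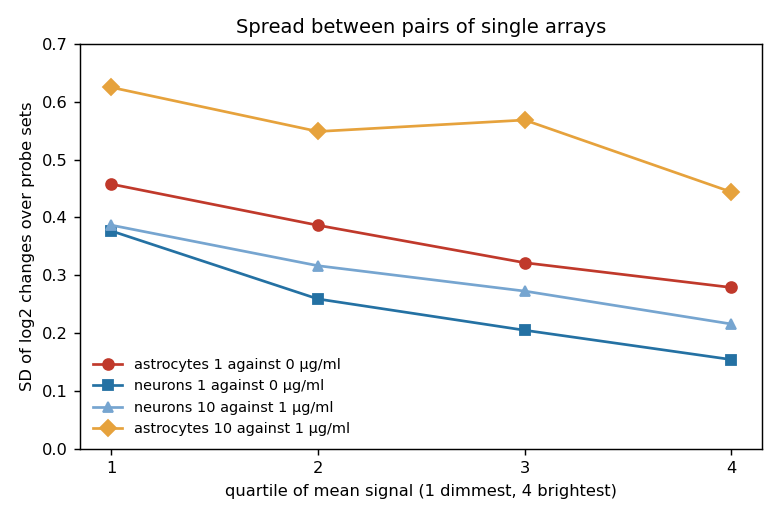
Standard deviation of the log2 changes (vertical axis) in each quartile of the compared probe sets from the dimmest to the brightest (horizontal axis), for pairs of arrays of astrocytes and neurons. The astrocytes at 1 against 0 µg/ml go from 0.46 to 0.28 and the neurons at the same doses from 0.38 to 0.15.

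Rsad2 had the most marked difference among the bright probe sets. This gene encodes viperin, an antiviral enzyme that interferon induces. Its brighter probe set read 429.5 without extract, 1608 at 1 µg/ml, 11129 at 10 µg/ml and 8749 at 100 µg/ml. The 3 neuron arrays read 338.2, 239.6 and 186.6 at 0, 1 and 10 µg/ml. The untreated astrocyte array was therefore near the neurons and every treated astrocyte array stood above all of them. The change at 1 µg/ml was 1.90, and the dimmer probe set, from 126.4 to 474.3, gave 1.91.

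The promoter of Rsad2 is shown because the gene led the bright probe sets and because its window holds an interferon-response-like motif, which reads GAAA, any 2 bases (NN), GAAA and was searched on both strands. The sequence, from RefSeq on build GRCr8, is the 250 bases before the start of the gene, at chr6:48788121-48788370 on the minus strand. Capitals mark the match, which reads as the motif on the opposite strand and begins 147 bases before the start.
Rsad2: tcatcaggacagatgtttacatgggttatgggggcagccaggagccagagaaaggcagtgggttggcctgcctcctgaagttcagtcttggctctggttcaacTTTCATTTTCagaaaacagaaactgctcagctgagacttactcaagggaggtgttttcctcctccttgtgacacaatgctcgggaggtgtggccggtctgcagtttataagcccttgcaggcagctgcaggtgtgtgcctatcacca
Among the 33 higher genes 24 had a promoter window of 250 bases before to 50 after the start, and 3 of these (12.5%) held the motif. The others were Atp6v1a, a subunit of the proton pump that acidifies lysosomes, and Cbx5, a heterochromatin protein. A stretch of 50 bases of each is given with the match in capitals, for Atp6v1a at chr11:70067340-70067389 on the plus strand and for Cbx5 at chr7:136229272-136229321 on the minus strand.
Atp6v1a: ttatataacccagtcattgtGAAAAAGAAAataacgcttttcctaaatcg
Cbx5: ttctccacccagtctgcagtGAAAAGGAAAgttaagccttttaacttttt
None of the 25 lower genes with a window held the motif, against 74 of 2241 compared genes (3.30%) and 3.92% of all RefSeq windows. A kappa-B-like motif, GGGA, any base (N), TTTCC, was searched after the values were seen and was found in none of the 24 and 25 windows and in 0.491% of those of compared genes. A match describes letters in a window and does not show a binding site.

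Cytokines, chemokines and other NF-kB targets were mostly higher at 1 µg/ml. Of 33 such genes on the array 26 were compared, 21 had a change above 0 and 4 below, and the median was 0.42. The filter used the mean over all 4 astrocyte arrays, so some members, such as Il6, Csf3, Ptgs2 and Tnf, were compared only through their signals at 10 or 100 µg/ml. With the filter on the 0 and 1 µg/ml arrays alone 19 genes were compared, of which 16 had a change above 0, and the median was 0.26. Averaging the probe sets of each gene over the 26 also gave 0.26. Over all 2695 genes, each by its brightest probe set, 1337 lay above 0 and 1356 below, with a median of -0.00. At least 2-fold higher were 3 of the 26, and 2 of the 19, against 0.965% of all genes. None was 2-fold lower, against 0.742%. In either direction 1.71% of genes passed 2-fold. The list was chosen with its response at higher doses known, so its direction there is not independent evidence.

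Ccl2, the chemokine that draws monocytes, read 1692 without extract and 3850 at 1 µg/ml in one probe set, then 11173 at 10 and 10477 at 100 µg/ml. Its other probe set read 739.3, 1768, 13157 and 19911. Both were more than 2-fold higher at the lowest dose, by 1.19 and 1.26, and both increased further at 10 µg/ml. The neuron arrays lay between 8986 and 9294 in the first probe set, so the untreated astrocytes were the lowest of the 7 arrays. Il1a, the alarm cytokine interleukin 1 alpha, read 121.1, 246.9, 1958 and 9387 from 0 to 100 µg/ml in its brighter probe set, a change of 1.03 at 1 µg/ml. Its dimmer probe set differed by 0.35, from 56.6 to 71.9. Csf3, the granulocyte growth factor, read 14.3, 37.0, 209.4 and 2998. Its untreated signal was below the floor, so its change of 1.05 is measured from the floor, and it was compared only through the higher doses.

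Several further members fell short of 2-fold. Vcam1, an adhesion molecule for leukocytes, read 827.0 and 1559, a change of 0.91, with 0.28 in its other probe set. Cxcl10, a chemokine that interferon and NF-kB both induce, read 331.8 and 546.7, a change of 0.72. Ptgs2, the inducible cyclooxygenase, differed by 0.98, but its untreated signal of 11.3 lay below the floor. A dimmer Ptgs2 probe set outside the comparison went the other way, from 37.8 to 30.8. The transcription factor Cebpb differed by 0.58. The probe sets of the chemokine Cx3cl1 ranged from -0.08 to 0.57, and those of Nfkbia, the NF-kB inhibitor that NF-kB itself induces, from 0.35 to 0.57. Smaller differences were found for genes with high signals at 100 µg/ml. The chemokine Ccl3 read 315.4 and 372.7 before reaching 16708 at 100 µg/ml, and Il1b read 1420 and 1701. Il6 was near the floor at both, at 19.6 and 26.8, and reached 17783 at 100 µg/ml. Tnf was the only member at least 1.5-fold lower, at -0.90, with a treated signal of 6.2 below the floor.

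In neurons at 1 µg/ml the 26 genes had a median of -0.01. Over the same pair of astrocyte arrays the microglia markers had 9 of 15 above 0, with the sums of 34835 and 37305 given above. The part of microglia in the cytokine differences was not tested.

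**Figure D3:**
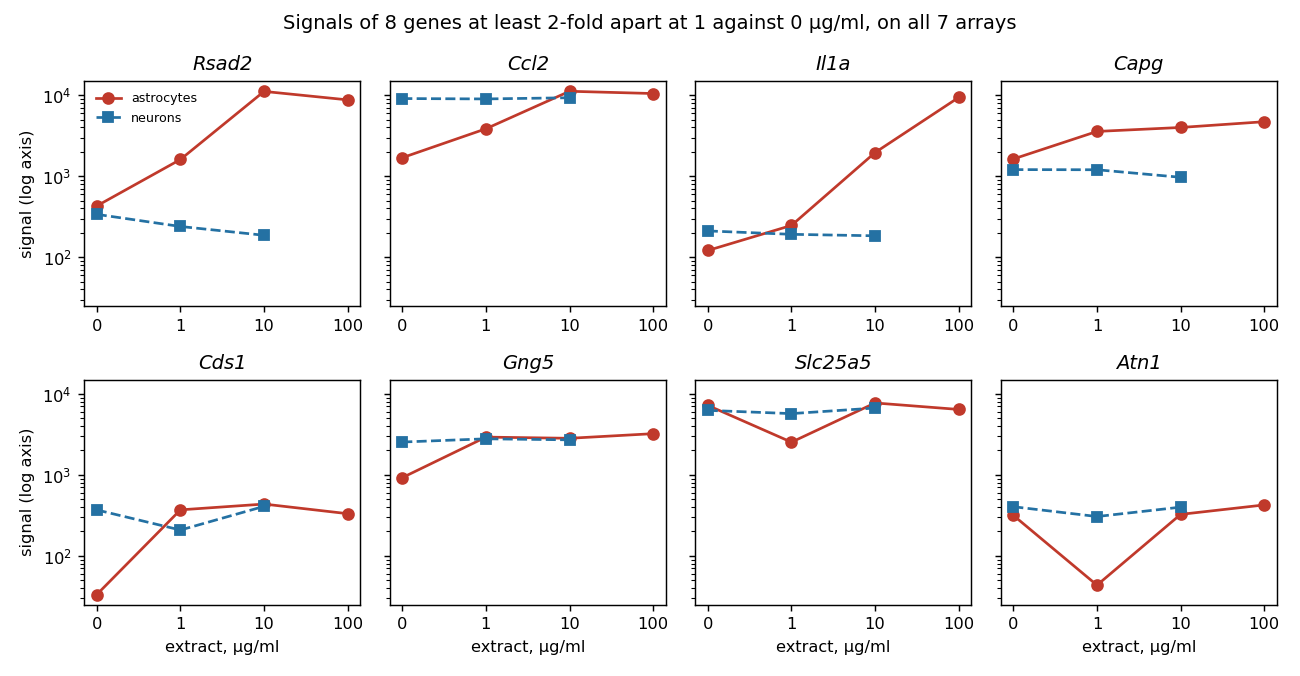
Signals on a log axis (vertical) by dose of grape seed extract in µg/ml (horizontal, evenly spaced categories) for 1 probe set of each of 8 genes, with the 4 astrocyte and the 3 neuron arrays, 1 array a point. Rsad2 and Ccl2 step up at 1 and again at 10 µg/ml in astrocytes, while Cds1, Gng5, Slc25a5 and Atn1 each have a single astrocyte array that departs from all others.

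Outside Rsad2 the interferon response and MHC class I genes differed little. Of 25 on the array 22 were compared, 13 above and 9 below 0, with a median of 0.12, and Rsad2 was the only member past 2-fold. RT1-M3-1, a nonclassical MHC molecule, read 760.0 and 1335, a change of 0.81, with 0.15 in its other probe set. The transcription factor Irf1 read 2431 and 3305, and the interferon-induced GTPase Gbp2 read 677.9 and 903.4. Their changes were 0.44 and 0.41. Other textbook targets went the opposite way, with Oas1a, which senses viral RNA, at -0.39 and the kinase Eif2ak2 at -0.28. MHC class II genes, which present antigen on microglia, had a median of 0.23 over 6 of 8 genes, with RT1-Da from 82.3 to 117.0 and Ctss, the protease that processes their chaperone, from 4719 to 5766.

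Errfi1, a feedback inhibitor of the EGF receptor, followed the pattern of the inflammatory genes more closely. It read 38.7, 96.2, 202.8 and 135.6 from 0 to 100 µg/ml, a change of 1.31 at the lowest dose, with 0.68 in its other probe set. P2ry2, a receptor for extracellular nucleotides, read 22, 52.2, 198.4 and 251.7, a change of 1.25. Capg, an actin-capping protein of macrophages and other motile cells, read 1631, 3568, 3994 and 4704, a change of 1.13, while the neuron arrays lay between 970 and 1206. In all 3 genes the untreated array was the lowest of the astrocyte arrays and the signals at 10 µg/ml exceeded those at 1 µg/ml. An unnamed probe set, M24067_at, behaved likewise, with 137.8, 292.8, 1829 and 3592. P2ry2 and the dimmer Errfi1 probe set passed the filter only through their signals at 10 and 100 µg/ml. Their higher signals there were thus favoured by the filter. The brighter Errfi1 probe set read 1131, 1812, 3461 and 2931 from 0 to 100 µg/ml.

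Other higher probe sets reached one level at 1 µg/ml and stayed there. Cds1, an enzyme that makes the lipid precursor CDP-diacylglycerol, had the largest difference of all, from 33.3 to 369.7, or 3.47. It then read 435.8 and 331.5 at 10 and 100 µg/ml, and 369.1, 208.3 and 408.4 in neurons. The untreated astrocyte array was thus the single low one of 7. The other Cds1 probe sets differed by 0.16 and -0.34. Gng5, a G protein subunit, read 923.1 without extract and between 2540 and 3222 on all 6 other arrays, a change of 1.66. Slc12a7, a potassium-chloride cotransporter, read 322.3 without extract and between 591.6 and 1065 on the others, a change of 1.31.

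Furin, the protease that cleaves many proproteins, read 46.2 and 155.4 in one probe set, a change of 1.75, and 0.05 in the other. Ssr3, a subunit of a complex at the protein translocation pore, read 1538 and 3650, a change of 1.25. Both were also higher in most neuron arrays than in the untreated astrocytes. Of the 44 higher probe sets, the untreated astrocyte array was the lowest of all 7 in 27, whereas it was the lowest in 7.93% of the compared probe sets. By construction a set chosen for a low untreated signal favours that array, so the share is a description. The median signal of the 44 was 140 without extract, 369, 402 and 341 at 1, 10 and 100 µg/ml, and 285, 244 and 230 in neurons.

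In many of the 44 higher probe sets the array at 1 µg/ml was the highest of the 4 astrocyte arrays. Schip1, which binds the cytoskeletal linker merlin, read 276.6, 792.1, 401.6 and 387.9 from 0 to 100 µg/ml, a change of 1.52. Kank2, a regulator of actin and adhesions, read 1362, 3335, 2906 and 1322, a change of 1.29. Ppp1r21, an endosomal protein, read 250, 653.6, 459.5 and 115.2. None of the compared probe sets was 2-fold higher at 1 µg/ml than on all 6 other arrays. With the neuron arrays included, the array at 1 µg/ml was the highest of all 7 for 9 of the 44, and for 14.1% of all compared probe sets.

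The names of the higher probe sets were unevenly spread over the sequence collections from which the array was designed, as was noticed after the values were seen. Probe sets named for expressed sequence tags of the series AA799, AA800 and AA892 to AA894 made up 703 of the 4252 compared (16.5%), but 21 of the 44 higher ones (47.7%) and 1 of the 41 lower ones (2.44%). They include Schip1, Kank2, Ssr3, Capg, Slc12a7, Ppp1r21, Cbx5, Atp6v1a, Gnpat and Gnl3, and neither Rsad2, Ccl2, Il1a nor Csf3. Without these series 23 higher and 40 lower remained. What these probe sets share besides their names was not tested.

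On the lower side, Atn1, a transcriptional corepressor, read 316.3 without extract and 43.5 at 1 µg/ml, then 325.0 and 425.2 at 10 and 100 µg/ml. The neuron arrays lay between 305.8 and 404.1, so only the array at 1 µg/ml was low. The change of -2.86 was the largest in this direction. Slc25a5, an ADP/ATP carrier of the inner mitochondrial membrane, was the brightest of the lower probe sets. It read 7196 and 2529, a change of -1.51, then 7711 and 6411, with neurons between 5696 and 6677. Slc6a9, the glycine transporter of glia, read 229.7 and 66.5, a change of -1.79, then 325.2 and 297.0. In these 3 genes the signals at 10 and 100 µg/ml were near or above those without extract.

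The array at 1 µg/ml was the lowest of 7 for 25 of the 41 lower probe sets, and for 9.03% of all compared ones. The untreated array was the highest of 7 for 25 as well, and for 16.3% of all compared ones. Both shares are favoured by the choice of these probe sets. The array at 1 µg/ml lay 2-fold below all 6 other arrays for 5 probe sets. They were those of Atn1, Slc25a5, Slc6a9, the inducible nuclear receptor Nr4a3 and 1 of the sterol demethylase Cyp51. The Nr4a3 and Cyp51 probe sets passed the filter only through the arrays at 10 and 100 µg/ml. Their low place at 1 µg/ml was thus favoured by the filter. The other compared Cyp51 probe sets lay between -1.21 and -0.13. Outside the comparison, other Nr4a3 probe sets were at -0.20 and -1.44, the latter with a treated signal below the floor. The median signal of the 41 was 188 without extract, 77.2 at 1 µg/ml, and 136 and 153 at 10 and 100 µg/ml. Dusp7, a phosphatase of ERK kinases, read 236.1, 63.0, 93.0 and 187.9 from 0 to 100 µg/ml, a change of -1.91, with 62.4, 153.1 and 117.2 in neurons. Here both cell types held low and high arrays, with no order by dose in common. Crem, a cAMP-responsive transcription factor, was at -2.14 in one probe set and 0.07 in another. Or1f32, an olfactory receptor gene, read 126.7 and 22.3, a change of -2.51, and varied between 26.7 and 129.6 over the neuron arrays. The lower Crem probe set and that of Or1f32 likewise passed the filter only through the arrays at 10 and 100 µg/ml. The cytoskeletal gene Utrn read 151.3 and 44.2, a change of -1.78.

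Besides Slc25a5, the bright lower genes were Ube2b, a ubiquitin-conjugating enzyme, and Tpm1, a tropomyosin, with 2 probe sets that have no symbol. Ube2b read 769.4 and 359.8, a change of -1.10, against -0.53 and -0.05 in its other probe sets. Tpm1 read 749.0 and 366.0, a change of -1.03, and its other probe sets lay between -0.08 and 0.05. The next bright genes fell just short of 2-fold. They were the urea cycle enzyme Asl at -0.99, the kinase anchor Akap11 at -0.97, the cyclin Ccnd3 at -0.95, Mtarc2 at -0.95, Nat2 at -0.94 and the transporter Slco1a4 at -0.91. The other probe sets of Asl, Ccnd3 and Mtarc2 did not share the direction or size, at -0.00, 0.38 and 0.15. Nfe2l2, which encodes NRF2, read 1153 and 603.5 in one probe set, a change of -0.93, and differed by 0.11 in the other. The lower Ccnd3 probe set read 1199 without extract and between 619 and 676 on the 3 treated astrocyte arrays, which share that untreated array.

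Genes with several probe sets show how often a difference repeated within the array pair. Of 726 genes with at least 2 compared probe sets, 24 had a probe set that differed by 2-fold. In 2 of the 24, Rsad2 and Ccl2, every compared probe set did so. In 5 of the 24 every compared probe set differed at least 1.5-fold one way, the others being Errfi1, Gnl3, a nucleolar protein of dividing cells, at 1.17 and 0.63, and Gnpat, an enzyme of ether lipid synthesis, at 1.23 and 0.95. In 6 the probe sets had opposite signs. Below 2-fold, Acly, which makes cytosolic acetyl-CoA, had 0.90 and 0.65, and Prickle2, a planar polarity protein, had 0.95 and 0.72. Dedd, an adaptor with a death effector domain, was the single gene whose probe sets were all at least 1.5-fold lower, at -0.66 and -0.80. The matrix protein fibronectin, Fn1, had -1.19 and -1.16 in its dim probe sets and -0.36 in its bright one, which read 10438 and 8108. Probe sets of a gene are read from the same cRNA and do not replicate the culture.

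**Figure D4:**
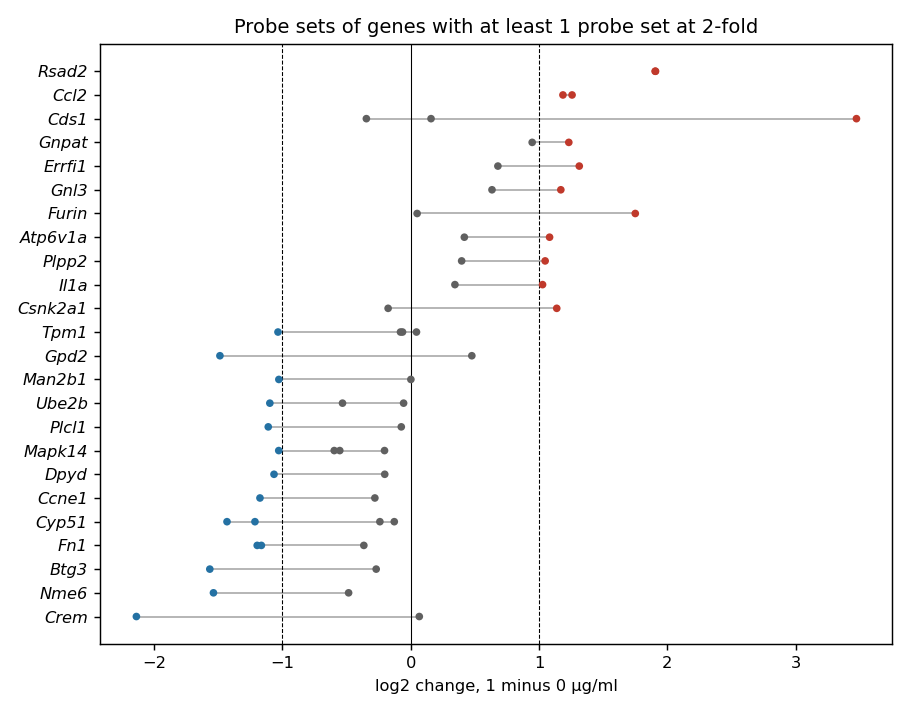
Log2 change at 1 against 0 µg/ml in astrocytes (horizontal axis) of every compared probe set of the 24 genes that have several probe sets and at least 1 past 2-fold (1 gene a row), with dashed lines at 2-fold, red for 2-fold higher and blue for 2-fold lower. Both probe sets of Rsad2 and both of Ccl2 lie past 2-fold, whereas Cds1, Furin, Crem and Tpm1 have 1 probe set past it and others near 0.

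Antioxidant genes did not differ as a group. Of 36 NRF2 targets and related genes 34 were compared, 16 above and 18 below 0, with a median of -0.01 and none past 1.5-fold. Hmox1, the heme-degrading enzyme, read 1345 and 1608 in its brighter probe set, a change of 0.26, and 209.9 and 394.5 in the other, a change of 0.91. Nqo1, a quinone reductase, read 5332 and 4584, a change of -0.22, and Gclm, a subunit of the enzyme that starts glutathione synthesis, was the highest of the list at 0.50. At 100 µg/ml the brighter Hmox1 probe set read 12871 and that of Nqo1 read 12124.

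Genes of oxidative phosphorylation were slightly lower together. Of 49 compared, 34 were below 0 and 15 above, with a median of -0.20, and only Ndufa3, a complex I subunit, passed 1.5-fold, from 2527 to 1460. The shift lay mainly in complex I, where 21 of 25 Nduf genes were below 0 with a median of -0.24. The 9 cytochrome oxidase genes had a median of -0.03 and the 10 ATP synthase genes -0.09. In neurons at 1 µg/ml the same complex I genes had a median of -0.08.

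The immediate early genes had a median of -0.05 over 24 genes, with Nr4a3 at -1.23 from a dim signal of 54.5. That Nr4a3 probe set passed the filter only through the higher doses. The cell cycle genes had a median of -0.14, with 17 of 24 below 0. Ccne1, the cyclin that starts DNA replication, read 298.4 and 132.3, a change of -1.17, while its other probe set differed by -0.28. For cholesterol synthesis the median was -0.13 over 17 genes. Fdft1, which makes squalene, was at 0.81, whereas Fdps, 1 step before it, was at -0.54 and Dhcr7, which completes cholesterol, at -0.48. Other probe sets of these 3 genes differed from them, reaching -0.01 for Fdft1, 0.42 for Fdps and 0.15 for Dhcr7. Ion transport and gap junction genes ranged from Slc12a7 at 1.31 to the connexins Gjb1 at -0.92 and Gjb5 at -0.90.

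Extracellular matrix genes had a median of -0.09 over 37 genes, with Tnc at 1.00, Thbs4 at 0.91 and Lum at -0.91, all 3 dim. Near 0 were the medians of heat shock proteins (-0.01), proteasome subunits (-0.01), cytosolic ribosomal proteins (-0.04), p53 targets and caspases (-0.05), glycolysis (0.02), fatty acid metabolism (0.06), the ER stress response (0.06), metallothioneins and iron handling (0.07), and growth factors (-0.01). In the ER stress list the chaperone Calr read 2040 and 3363, a change of 0.72, while its probe sets ranged from 0.06 to 0.72. Purinergic receptors had a median of 0.12 over 8 genes. Glutamate and GABA genes had 6 compared of 37, with a median of -0.26. Among the marker genes, Glul, the glutamine synthetase of astrocytes, read 5035 and 7866, a change of 0.64 and the highest of its probe sets, which ranged from 0.20. Cd53, a leukocyte surface protein of microglia, read 425.3 and 778.1, a change of 0.87. Tlr4, the endotoxin receptor, read 186.6 and 116.7, a change of -0.68. Median changes of the oligodendrocyte, endothelial, fibroblast and neuron markers were -0.12, -0.01, -0.05 and -0.01.

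**Figure D5:**
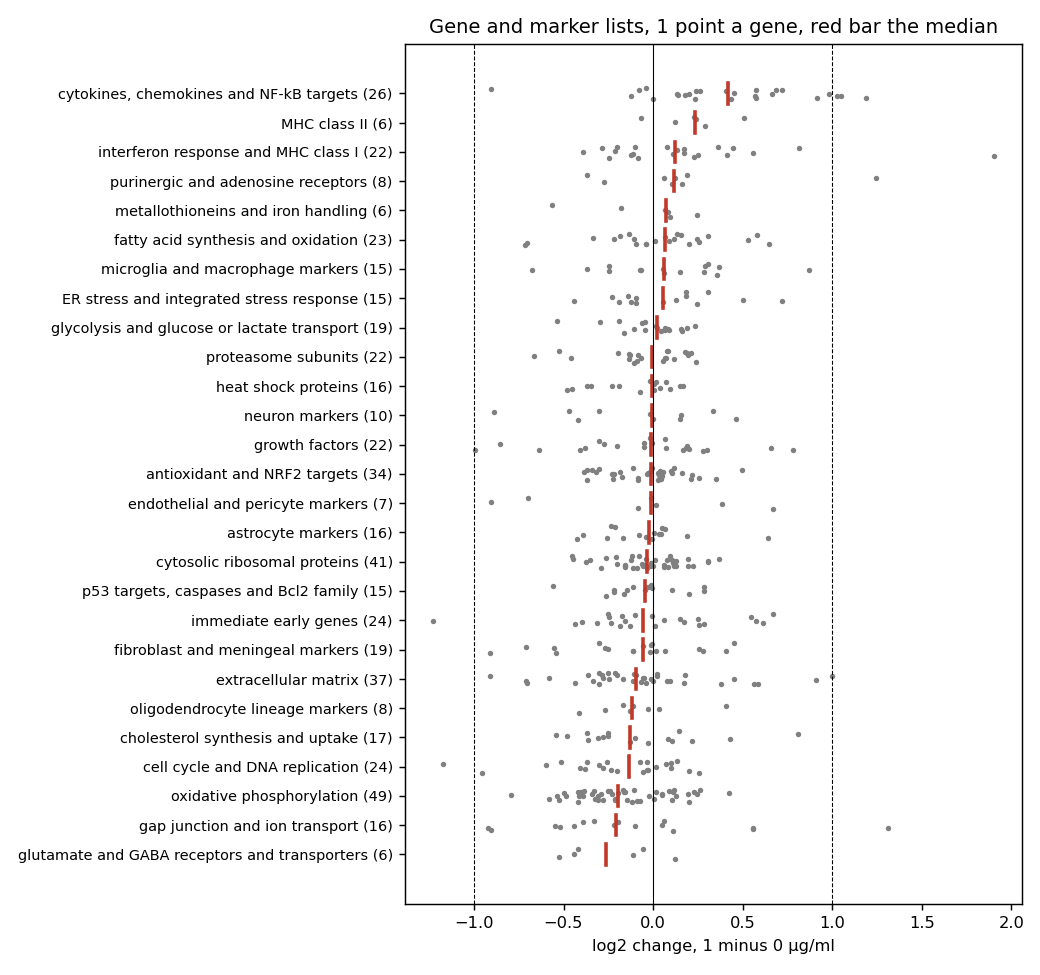
Log2 change at 1 against 0 µg/ml in astrocytes (horizontal axis) of every compared gene in each gene and marker list (1 list a row, with its number of genes), 1 point a gene by its brightest probe set, a red bar at the median and dashed lines at 2-fold. The cytokine list has a median of 0.42, or 0.26 over the 19 genes that pass a filter on the 0 and 1 µg/ml arrays alone, and most other lists centre near 0.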

How the data were processed

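The values are signal intensities on a linear scale, as deposited, which the authors computed with GCOS, per the submitters' processing notes. No version or scaling setting is named there. Per the labels' protocols, 100 ng of RNA was amplified in a double-cycle procedure. The 2% trimmed means of both arrays were 500.766 and 500.779, so the scale was kept. Changes are log2 differences after the floor of 17.9, computed with Python 3.11.15, numpy 2.4.6, pandas 2.3.3 and statsmodels 0.14.6 (lowess), and the code was checked on simulated data. Symbols came from the platform annotation: 7006 probe sets had 1 symbol, 308 several and 1426 none. For gene lists each gene was taken by its brightest probe set. Each condition has 1 array, so no test, error or p-value exists.

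Named genes were drawn from the 10 highest and 10 lowest probe sets with 1 symbol, and from the same among bright ones. Further sources were genes whose probe sets all differed 1.5-fold one way, the 3 largest changes of each list, and a few preset genes. Others, such as further cytokines, were named after their values were seen. Not every member of these groups is described, with Ifitm10 at 1.62 and Btg3 at -1.56 among those left out. The comparison, its members and the lists were chosen with earlier results of these data known. Alternatives were other normalizations, floors, filters, thresholds and gene summaries. Symbols of the promoter windows were matched to RefSeq, build GRCr8, for 2241 of 2695 compared genes.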

Additional observations from a re-analysis of the deposited data

Results flagged for a closer look

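For 4 genes and 1 gene list given here, the astrocyte and the neuron array at 1 µg/ml departed from their untreated arrays in opposite directions. For the list the median is given. These are examples and not a full count. Or1f32 was likewise at -2.51 in astrocytes and 1.02 in neurons, Tnc at 1.00 and -1.40, and Mx2 at 0.56 and -1.66. With 1 array a condition none of these differences was tested. Cds1 was at 3.47 in astrocytes and -0.83 in neurons, and its other probe sets lay between -0.34 and 0.16 in astrocytes. Furin was at 1.75 and -1.71, with 46.2 and 155.4 in astrocytes and 151.0 and 46.0 in neurons. The other, brighter Furin probe set did not share this contrast, at 0.05 in astrocytes and 0.18 in neurons. Dusp7 was at -1.91 and 1.29. Dcn, the matrix proteoglycan decorin, was at -0.71 in astrocytes, from 415.8 to 254.5, and 1.01 in neurons, from 73.3 to 147.8. The other Dcn probe set went the opposite way in astrocytes, at 0.41. The MHC class II genes had a median of 0.23 in astrocytes and -0.20 in neurons.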

How the results depend on the processing

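No paired analysis was possible because each combination of cell type and dose has 1 array. The main counts were 44 higher and 41 lower. With a pseudocount of 50 they were 20 and 14, without the filter on dim probe sets 175 and 291, with a filter at the 75th percentile 17 and 5, and with probe sets averaged per gene 26 and 18. At 1.5-fold they were 194 and 213 and at 3-fold 6 and 7. Without the AA799, AA800 and AA892 to AA894 series, an alternative chosen after seeing the data, the higher count was 23. Quantile normalization gave 56 and 36, lowess 57 and 32. Counts with median centring, no floor, or a filter on the compared arrays alone stayed within 1.5 times. In 330 comparisons of a named 2-fold probe set with an alternative, 310 stayed past 2-fold and none changed sign. For many of these the outcome was fixed in advance. Other filters, and leaving out the tag series, do not alter the change of a probe set. Having no floor alters only probe sets with a signal below it. Probe sets that an alternative left out were not counted, so the share is no measure of how stable the changes are. Cds1 as a mean over its probe sets was 1.1, and Furin 0.90. With a pseudocount of 50 Il1a was 0.80 and Csf3 0.44. The cytokine median lay between 0.23 and 0.46, with 0.29 at a pseudocount of 50, and of 27 lists 16 kept the sign of their median under all 11 settings. Signal near the floor limits the dim probe sets, and nothing here measures the spread between cultures.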

Other observations

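The 21 higher probe sets of the expressed sequence tag series AA799, AA800 and AA892 to AA894 had median signals of 250 without extract, 654, 425 and 353 at 1, 10 and 100 µg/ml in astrocytes, and 600, 609 and 365 at 0, 1 and 10 µg/ml in neurons. The untreated astrocyte array was below all 3 neuron arrays in 18 of the 21. Because the 21 were chosen for a low untreated astrocyte signal, this count is favoured by the choice and is a description. Across all 703 compared probe sets of these series the median change was 0.03 and the standard deviation 0.35. In neurons at 1 against 0 µg/ml, 1 of 709 was at least 2-fold higher and 2 at least 2-fold lower. The 1256 compared probe sets of other expressed sequence tags had 6 higher and 14 lower, and the 2293 others had 17 and 26. The place of a probe set on the array is not in the files used here and was not examined.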
